A study of Mus musculus with 4 samples.

Results

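Arterial blood endothelial cells of the mouse digit tip were 497 of 2714 blood endothelial cells, themselves drawn from 93602 kept cells of 113503 barcodes in 4 single-cell RNA libraries. A blood endothelial cell had a UMI (a counted RNA molecule) of 3 or more of Pecam1, Cdh5, Emcn, Plvap and Kdr and 0 UMIs of the lymphatic genes Prox1 and Mmrn1. It was called arterial when it also had a UMI of 2 or more of Gja5, Gja4, Sox17 and Sema3g. The other 2217 blood endothelial cells had UMIs of at most 1 of these 4 genes. The cells were thus chosen by measured UMIs of these genes, and the levels of the 4 arterial genes are given as a description only.

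The study asked how loss of lymphatic vessel function affects regrowth of an amputated digit tip, and these libraries were made from whole digit tissue. Each library pooled hindlimb digits 2 to 4 of 10 female C57BL/6 mice (C57BL/6J in the study's methods) aged 6 to 8 weeks, cut off at the 2nd phalanx. The study's methods amputate digits 2 and 4, and its text places this tissue 8 days after amputation, while a legend for the diet pair gives 5 days. The LNR library came from limbs whose inguinal and popliteal lymph nodes were removed, and the sham library, which GEO labels as untreated, came from the contralateral limbs of the same mice. The SAR131675 library came from mice fed 30 mg/kg chow of this VEGFR3 kinase inhibitor for 8 days per the labels, started 5 days before amputation per the methods, and the control diet library from mice on chow without it. The labels name no transgene or mutation in any group. With 1 library per condition there was no replicate of any treatment, and each library was also its own batch in the labels. Values below are in the order LNR, sham, SAR131675 and control diet, with n = 4 libraries in tests between cell classes.

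Arterial endothelial cells line the vessels that carry blood from the heart. They take their identity from VEGF and blood flow acting through Notch signaling and SOX F transcription factors, and they are coupled by connexin gap junctions. They carry Efnb2 on their surface, whereas venous cells carry its receptor Ephb4, and they control the tone of the surrounding smooth muscle through nitric oxide, endothelin and ion channels.

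The libraries held 92, 97, 184 and 124 arterial cells among 711, 731, 709 and 563 blood endothelial cells. The diet libraries were the deeper pair, with 585284877 UMIs in SAR131675 and 448276501 in control diet, against 168507188 in LNR and 175998346 in sham. Per the file headers they were also counted with a later Cell Ranger version (8.0.1 against 6.1.2), although the labels name 6.1.2 throughout, so levels are compared only within a library or within a pair. The median arterial cell had 6940, 7038, 10929 and 11700 UMIs, against 4635, 4570, 8727 and 7626 in the other blood endothelial cells. Arterial cells were the deeper class in every library, and a rule that asks for UMIs of 2 genes favors deeper cells. The LNR and sham libraries shared 130 barcodes and the diet libraries 348, and none of these was a blood endothelial cell in both libraries.

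Of the rule genes, Sox17, a SOX F transcription factor, was seen in 93.8% of arterial cells and in 35.1% of the other blood endothelial cells. Sema3g, a secreted semaphorin, was seen in 71.4% and 2.35%, the connexin Gja4 in 67.6% and 5.50%, and the connexin Gja5 in 10.9% and 0.180%. In keratinocytes, which should lack these genes, Gja4 was seen in 0.466% to 0.876% of cells and Sox17 in 0.0211% to 0.130%, at median depths of 8458 to 12808 UMIs. The usual arterial cell therefore paired Sox17 with Gja4, Sema3g or both. Gja4, Sox17 and Sema3g were found together in 142 cells, Sox17 with Sema3g in 140 and Gja4 with Sox17 in 137. Gja4 with Sox17 was the most frequent set in LNR and sham (34 and 35 cells, against 18 and 22 with all 3 genes), and the set of 3 in SAR131675 (64 against 40), with 38 against 28 in control diet, where Sox17 with Sema3g was found in 40. All 4 genes were found in 29 cells, none of them from the LNR library. Just inside the rule, 71, 65, 96 and 77 cells had exactly 2 arterial genes, at median depths of 7054, 7571, 11589 and 11705 UMIs. Just outside it, 215, 227, 297 and 218 cells had 1 arterial gene, at median depths of 5587, 5252, 9805 and 9042 UMIs. The pan-endothelial genes Pecam1 (99.4% of arterial cells and 97.2% of others) and Cdh5 (96.8% and 87.0%) were present in nearly every arterial cell, whereas Plvap, the protein of fenestral diaphragms, was seen in 76.7% against 94.6%. These genes belong to the endothelial rule, so their shares are a description only.

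Genes outside the rule were then compared between arterial cells and the other blood endothelial cells of the same library. UMIs were summed per library and class, given as CPM (the UMIs of a gene scaled to the same total in every class), and tested with edgeR's quasi-likelihood test with the library as a block, adjusted over all 11870 genes tested. The p-values ask whether a difference between cells with and without the rule genes recurred over these 4 libraries, of which LNR and sham share mice. Of all genes, 653 (5.5%) were higher and 485 (4.09%) lower in arterial cells at an adjusted p under 0.05. Without the SAR131675 library these counts were 309 and 216, and without the control diet library 361 and 260. Levels are compared between classes for 1 gene at a time, never between genes, whose transcripts differ in capture.

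Most known arterial genes outside the rule went with it, in a list chosen with earlier results of these data known. Of 20 measured, 13 were higher in arterial cells, with a median log2 difference of 1.18 against -0.03 for all genes. None was lower by edgeR (1 at an unadjusted p under 0.05) or by DESeq2, and 1 was lower without the SAR131675 library. Cldn5, the main tight junction claudin of endothelium and a member of the junction list rather than of these 20, measured 512, 524, 615 and 651 CPM in arterial cells and 123, 121, 53.4 and 84.9 CPM in the others. All 4 arterial values lay above all 4 of the other class, a log2 difference of 2.62 ± 0.22 (SE, adjusted p = 6.01e-05). Hey1, a Notch target that represses venous fate, was also separated in every library, at 70.8, 95, 100.3 and 78.1 CPM against 16.2, 11.3, 16.1 and 12.8 CPM (log2 2.58 ± 0.15, adjusted p = 9.23e-06). Igfbp3, a secreted binder of insulin-like growth factors, measured 406, 300.2, 349.6 and 304 CPM against 108, 161, 43.2 and 27.3 CPM (log2 2.24 ± 0.34).

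Gkn3, a gastrokine whose transcript marks arterial endothelium in mouse, was nearly confined to these cells within the blood endothelium. Its level was 36.8, 84.9, 43.2 and 55.0 CPM in arterial cells, whereas the other class held 1, 3, 4 and 2 UMIs in all, or 0.269 to 0.785 CPM. The fitted log2 difference was 6.34 ± 0.25, a value that depends on the prior count because the lower class is so close to 0. The ephrin Efnb2 was higher at 168, 171, 267 and 217 CPM against 62.5, 72.3, 93.0 and 77.8 CPM (log2 1.39 ± 0.08). The Tec family kinase Bmx (log2 1.85 ± 0.12), the netrin receptor Unc5b (1.77 ± 0.19), the elastic fiber protein Fbln5 (1.63 ± 0.11), Tmem100 (1.46 ± 0.28) and the matrix inhibitor of calcification Mgp (1.17 ± 0.13) were higher as well. The 7 measured arterial genes that did not pass were Cxcr4 (log2 0.91), Alox12 (1.18), Nrp1 (0.23), Sox7 (0.09), Dkk2 (-0.05), Dll1 (-0.45) and Cytl1 (-0.45).

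Venous genes went the other way. Of 10 measured, 7 were lower, with a median log2 difference of -1.13, and none was higher by edgeR (0 at an unadjusted p under 0.05) or by DESeq2. With 3 or more arterial rule genes required, 1 was higher and 6 were lower. Sele, the adhesion molecule E-selectin, measured 94.8, 120.3, 136 and 162 CPM in arterial cells against 539, 503, 1334 and 1811 CPM (log2 -2.94 ± 0.19, adjusted p = 1.17e-05). Tll1, a secreted protease, was at 1.42, 3.8, 9.29 and 21.7 CPM against 10.5, 10.8, 179 and 234 CPM, and the leukocyte adhesion receptor Icam1 at 173, 190.0, 282 and 307 CPM against 385, 355, 629 and 691 CPM. Lrg1 (log2 -1.93 ± 0.11), Nrp2 (-0.88 ± 0.11), Vcam1 (-1.12 ± 0.26) and the apelin receptor Aplnr (-1.67 ± 0.14) were also lower. Vcam1 lost its call without the SAR131675 library (adjusted p = 0.15, and 0.017 to 0.041 with each of the other libraries left out). Ephb4, the receptor of Efnb2, was not separated, at 70.8, 62.1, 124 and 124 CPM against 65.4, 51.4, 127 and 121 CPM (log2 0.04). The listed venous genes Plat and Bgn did not pass either.

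Of 10 capillary genes outside the rules, 5 were lower and 1 higher. Their summed level was 5830 to 8577 CPM in the cells set apart further on as venous-type and 1569 to 4293 CPM in those set apart as capillary-type. Against capillary-type cells 3 of 10 were lower, and 1 without SAR131675 or control diet. The list thus did not single out capillary-type cells. The genes used to pick capillary-type cells went the other way, with 2 of 3 tested higher in arterial cells. The water channel Aqp1 measured 282, 302, 239 and 214 CPM against 955, 895, 988 and 1017 CPM (log2 -1.95 ± 0.10), and the fatty acid carrier Fabp4 1398, 1842, 1443 and 954 CPM against 4074, 3649, 3629 and 2763 CPM (log2 -1.39 ± 0.09). Apln, which encodes the peptide apelin of sprouting capillaries, was low in arterial cells at 11.3, 5.07, 3.71 and 1.36 CPM against 22.1, 31.5, 33.8 and 36.6 CPM. The homeobox genes Meox1 (log2 -1.90 ± 0.20) and Meox2 (-0.63 ± 0.09) were lower, and Tcf15 was higher (1.53 ± 0.25). Most arterial and venous markers that the rule did not use went with the arterial label. These lists were chosen with earlier results of these data known, so their counts are no independent evidence for the label. Of the 497 cells, 134 (27.0%) also had UMIs of 2 or more of the venous genes Ackr1, Selp, Vwf and Nr2f2 (58.9% of the other cells). UMIs of 2 or more of the capillary genes Rgcc, Cd36, Car4 and Gpihbp1 were found in 175 (35.2%, against 16.5% of the other cells).

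**Figure D1:**
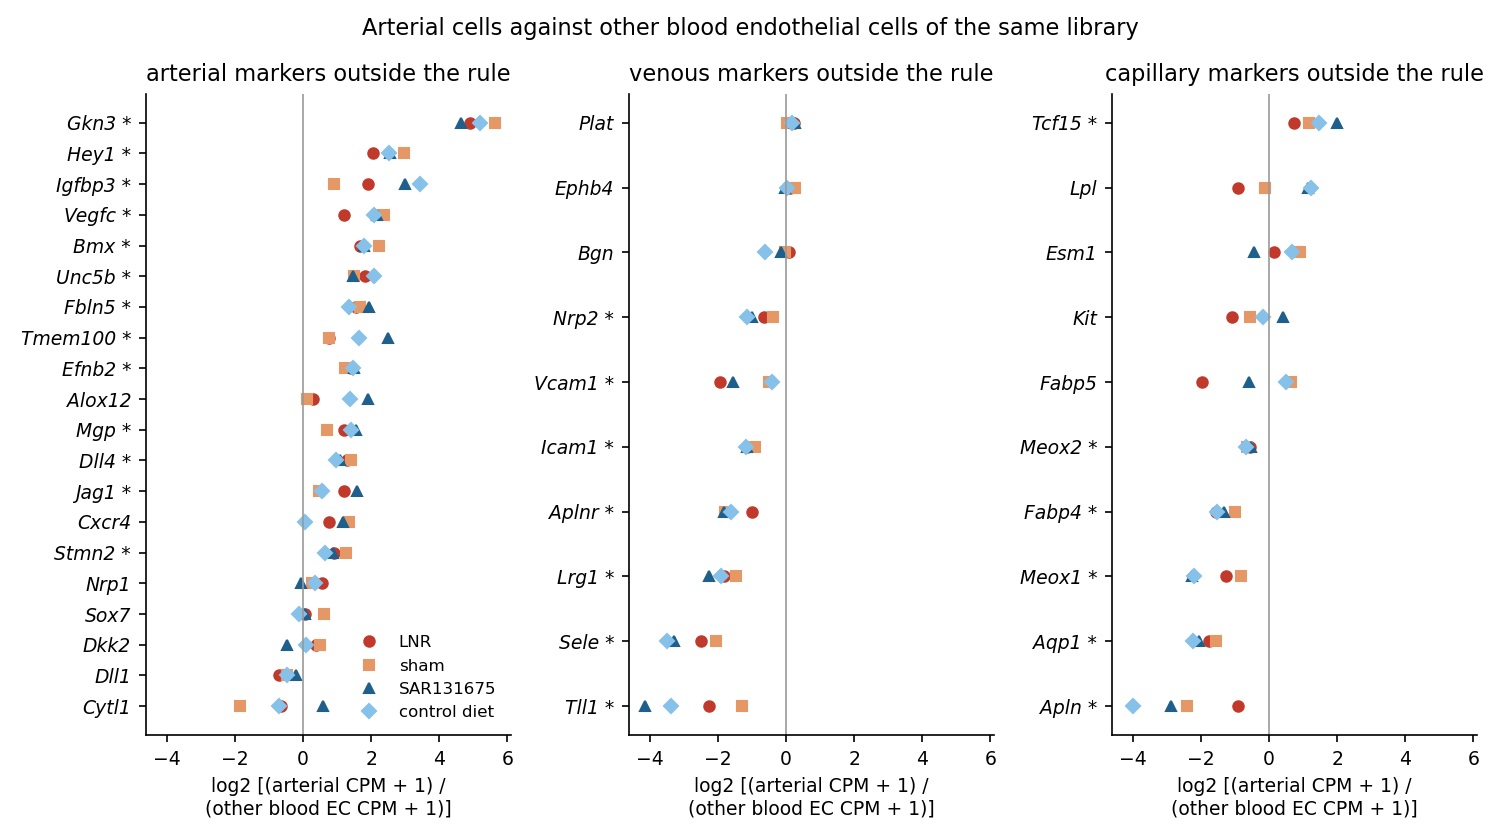
Log2 ratio of the summed level in arterial cells to that in the other blood endothelial cells of the same library, with 1 CPM added to each level, for arterial, venous and capillary markers outside the rule. Each point is 1 library and an asterisk marks an adjusted p under 0.05. Of the arterial markers 13 of 20 were called higher, and of the venous markers 7 of 10 were called lower.

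Ranked by size, the largest higher differences held the listed genes Gkn3, Cldn5 and Hey1 and 9 genes outside the marker lists. Beside the listed 3, the 12 largest higher genes were Tox2 (log2 4.31 ± 0.46), St8sia6 (4.25 ± 0.21), Nebl (3.43 ± 0.39), Atp2b2 (3.01 ± 0.19), Egfl8 (2.88 ± 0.28), S1pr3 (2.79 ± 0.24), Lrrc3b (2.78 ± 0.30), Chrm3 (2.69 ± 0.20) and Ssu2 (2.54 ± 0.26). Tox2, an HMG box protein, measured 11.3, 7.60, 42.7 and 38.7 CPM in arterial cells and 0.539, 1.23, 0.392 and 3.00 CPM in the others. St8sia6, a sialyltransferase, was at 36.8, 41.8, 119 and 103 CPM against 3.50, 2.46, 4.51 and 4.91 CPM. S1pr3, a receptor of sphingosine 1-phosphate, was at 53.8, 30.4, 15.8 and 19.0 CPM against 8.89, 4.18, 2.35 and 1.64 CPM, and Atp2b2, a plasma membrane calcium pump, at 18.4, 21.5, 63.6 and 68.6 CPM against 2.96, 3.44, 6.67 and 7.64 CPM. Chrm3 was near the floor in the node removal pair. In cells with 2 arterial rule genes it was at 1.84, 3.68, 75.4 and 58.6 CPM, and with 3 at 6.14, 11.3, 207 and 199 CPM.

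The 12 largest lower genes were the hemoglobins Hbb-bt, Hba-a2, Hba-a1 and Hbb-bs and the endothelial genes Ackr1, Tll1, Lbp, Cadm3, Cysltr1, Nt5e, Selp and Gpm6a. Ackr1, the atypical chemokine receptor of venules, measured 4.25, 31.7, 7.43 and 38.0 CPM against 241, 236, 415 and 454 CPM (log2 -4.24 ± 0.34), and P-selectin, encoded by Selp, 77.8, 166, 87.3 and 174 CPM against 672, 552, 1723 and 1823 CPM (log2 -3.22 ± 0.31). Lbp (log2 -3.32 ± 0.30), Cysltr1 (-3.29 ± 0.29), Nt5e (-3.28 ± 0.18), Cadm3 (-3.31 ± 0.44) and Gpm6a (-3.11 ± 0.32) followed. Hbb-bs, a transcript of red cells, was at 35.4, 48.1, 35.8 and 134 CPM in arterial cells against 614, 56.5, 489.8 and 1142 CPM, so that the sham library stood apart with little hemoglobin RNA in either class. The hemoglobin calls did not hold when the upper limits on genes and UMIs per cell were lifted, or without cells carrying markers of another cell type, where Hbb-bs differed by -0.25 on the log2 scale. Erythroid markers were among those that picked the cells left out, so the latter loss follows in part from the choice.

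Levels of genes that the rule did not use were then set beside the number of rule genes in a cell. With 0, 1, 2, 3 and 4 arterial rule genes, Cldn5 measured 75.6, 109, 376, 880.4 and 1300.5 CPM over the pooled libraries. Hey1 measured 12.3, 16.0, 48.5, 137 and 236 CPM over the same steps, and Efnb2 76.3, 79.0, 151, 293 and 587 CPM. Gkn3 was almost confined to cells inside the rule, at 0.247, 0.949, 12.1, 48.8 and 474 CPM. The venous genes dropped between 1 and 2 rule genes to 181 CPM from 1487 CPM for Selp and to 31.0 CPM from 332 CPM for Ackr1. Of the 20 arterial markers, 11 were higher at every step, and the others had no such order. Tmem100 measured 18.9, 20.5, 40.6, 76.1 and 35.5 CPM, Nrp1 259, 367, 419, 368 and 345 CPM and Cytl1 41.7, 39.0, 6.07, 44.6 and 242 CPM over these steps. S1pr3, of the 12 largest higher genes, was at 2.10, 6.05, 31.9, 13.7 and 3.23 CPM, with 1 UMI at the last step. Of the 10 venous markers 1 (Lrg1) was lower at every step, Icam1 being at 448, 590.3, 249, 272 and 303 CPM. Plat was at 37.6, 52.7, 40.9, 79.7 and 116 CPM and Bgn at 166, 107, 113, 68.4 and 242 CPM. From 3 to 4 rule genes the control diet library went the other way from the pool, to 763 CPM from 977 CPM for Cldn5 and to 59.9 CPM from 156 CPM for Hey1. Cells with 4 rule genes came from 3 libraries only (8, 15 and 6 cells of sham, SAR131675 and control diet), and each step held its own mix of libraries, so these values are a description with no test.

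**Figure D2:**
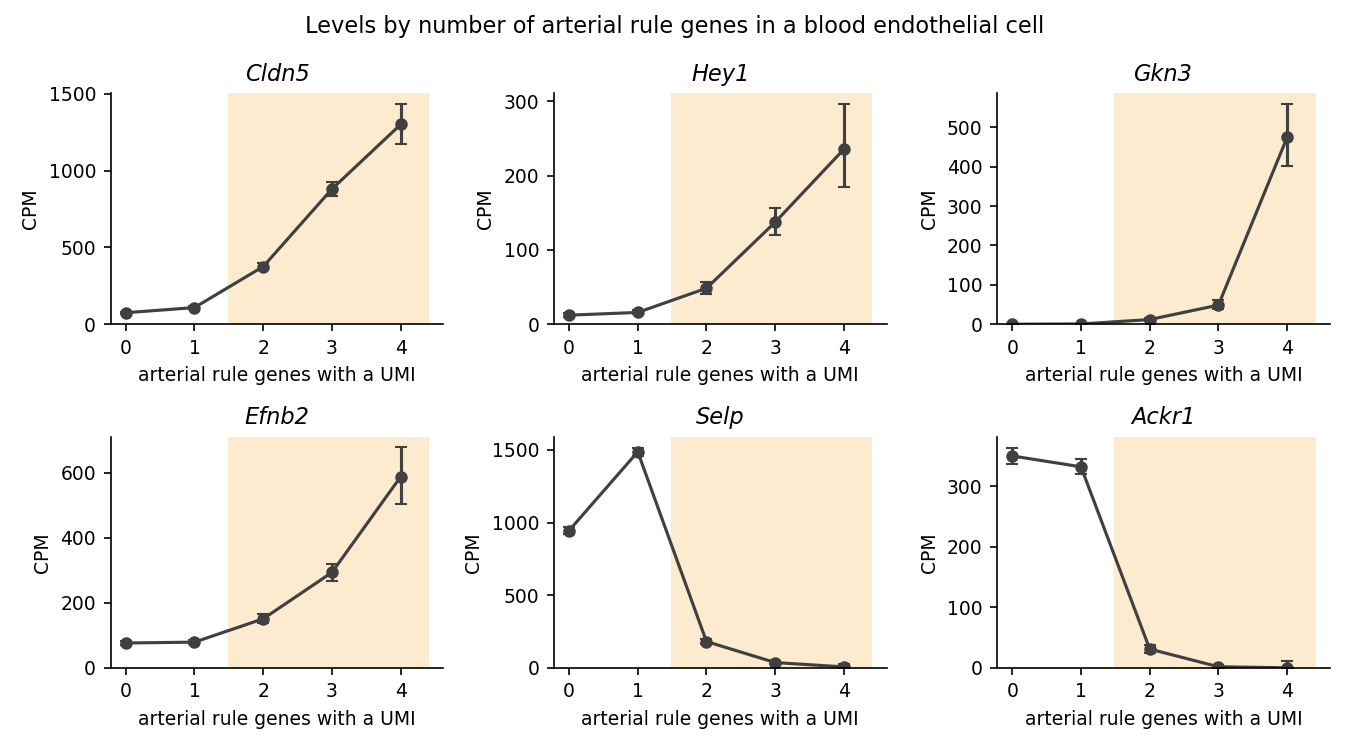
Summed level (CPM) of Cldn5, Hey1, Gkn3, Efnb2, Selp and Ackr1 in blood endothelial cells with 0 to 4 arterial rule genes, pooled over libraries. Bars are exact 95% Poisson intervals, which cover counting error only, and the shaded steps are the arterial cells. Cldn5 lay between 75.6 CPM with no rule gene and 1300.5 CPM with 4.

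Notch signaling passes from ligands on one cell to receptors on its neighbor, and in arteries it switches on Hey and Hes repressors. Of 23 genes of the pathway measured, 11 were higher in arterial cells, with a median log2 difference of 0.27, and none was lower by edgeR (4 at an unadjusted p under 0.05) or by DESeq2. The count was 7 without the SAR131675 library and 8 without sham or control diet. Among ligands, Dll4 measured 89.1, 83.6, 161 and 199.7 CPM against 35.5, 31.0, 75.7 and 101 CPM (log2 1.12 ± 0.09, adjusted p = 4.85e-05), Jag1 120.3, 84.9, 198 and 109 CPM against 51.4, 60.7, 65.7 and 73.9 CPM (log2 0.98 ± 0.17) and Jag2 103, 115, 168 and 154 CPM against 39.9, 43.0, 67.5 and 71.5 CPM (log2 1.25 ± 0.09). All 3 ligands were higher in each library.

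Among the Notch receptors, the endothelial Notch4 was at 53.8, 38.0, 41.8 and 31.9 CPM against 14.8, 12, 14.9 and 13.6 CPM (log2 1.5 ± 0.15). Notch3, best known from smooth muscle and pericytes, was also higher, at 168, 177, 117 and 142 CPM against 85.9, 89.2, 37.5 and 47.7 CPM (log2 1.26 ± 0.13), and was too low to test once cells with markers of another type were left out. Notch1 differed least (log2 0.28 ± 0.08) and lost its call without sham, SAR131675 or control diet (adjusted p from 0.085 to 0.24). Notch2 was at 7.08 to 20.4 CPM and did not pass (log2 -0.57). Of the targets, Heyl (log2 1.85 ± 0.26) and Hey2 (2.17 ± 0.38) accompanied Hey1, Hey2 with an adjusted p of 0.066 without SAR131675. The feedback inhibitor Nrarp (log2 0.66 ± 0.16) and the noncanonical ligand Dlk1 (1.67 ± 0.37) passed with all 4 libraries and without LNR, but not without any of the other 3 (adjusted p from 0.065 to 0.26 for Nrarp and from 0.081 to 0.1 for Dlk1). Hes1 (log2 0.27), the DNA-binding partner Rbpj (0.04) and the protease Adam10 (0.06) did not pass.

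Arterial cells were also a source of transcripts for secreted factors. Vegfc, the main lymphatic growth factor and a ligand of VEGFR3, measured 31.1, 50.7, 218 and 143 CPM in arterial cells against 12.9, 8.85, 47.1 and 33.0 CPM in the others. It was higher in each of the 4 libraries, by 2.07 ± 0.15 on the log2 scale (adjusted p = 2.71e-05). The receptor gene Flt4, the target of SAR131675, was low in arterial cells at 25.5, 11.4, 16.7 and 15.6 CPM and did not differ beyond the test (log2 0.54). Of 9 VEGF receptor and partner genes, 3 were higher (Vegfc, Flt1 by 0.27 ± 0.06 and the phosphatase Ptprb by 0.41 ± 0.07) and Nrp2 was lower (log2 -0.88 ± 0.11). Flt1 did not pass with any 1 library left out (adjusted p from 0.058 to 0.12). Vegfa measured 15.6, 13.9, 24.1 and 15.6 CPM against 15.9, 16.7, 8.44 and 9.28 CPM and did not pass.

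Of 11 factors that act on lymphatic vessels, monocytes or osteoclasts, 7 were higher and none lower by edgeR (1 at an unadjusted p under 0.05) or DESeq2, with 1 lower without sham, 3 higher with 3 or more arterial rule genes required, and 3 of 8 higher and 1 lower without cells carrying markers of another type. Besides Vegfc these were the CSF1 receptor ligand Il34 (log2 0.85 ± 0.15), the monocyte chemokine Ccl2 (1.08 ± 0.16), the cytokine Il6 (0.61 ± 0.09), Pdgfb (0.59 ± 0.11), Tgfb1 (0.47 ± 0.11) and the KIT ligand Kitl (0.43 ± 0.07). Pdgfb, which recruits mural cells to arteries, measured 219, 147, 241 and 239.8 CPM against 102, 91.5, 170.3 and 194 CPM. Ccl2 measured 362, 184, 33.4 and 29.9 CPM against 114, 98.6, 15.3 and 22.4 CPM. Il34 lost its call without SAR131675 (adjusted p = 0.06, against 0.0026 to 0.026 with another library left out). Tgfb1 lost it without SAR131675 or control diet (0.08 and 0.073). Csf1 was at 19.8, 38.0, 34.8 and 45.5 CPM against 38.5, 31.5, 62.6 and 57.0 CPM and did not pass (log2 -0.51). Tnfsf11, the osteoclast factor RANKL, was too low to be tested, at no more than 0.983 CPM in the other class.

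Genes of vessel tone gave 11 of 24 higher and 1 lower, with a median log2 difference of 0.36, and 6 higher without SAR131675 or control diet. Kcnn4, a calcium-activated potassium channel of endothelium, measured 26.9, 21.5, 25.1 and 27.2 CPM against 7.27, 3.44, 3.14 and 7.91 CPM (log2 2.24 ± 0.26), and the nucleotide receptor P2ry2 22.6, 19.0, 26.9 and 34.0 CPM against 7, 5.41, 9.42 and 8.73 CPM (log2 1.69 ± 0.19). The endothelin receptor Ednrb was at 132, 108, 104 and 153 CPM against 63.0, 51.9, 52.8 and 45.3 CPM (log2 1.18 ± 0.13). The caveolar protein Cav1 (0.59 ± 0.07) and the receptor Ednra (0.85 ± 0.15) were higher too. Nos3, the endothelial nitric oxide synthase, measured 82.1, 54.5, 133 and 179 CPM against 47.4, 37.6, 112 and 123 CPM (log2 0.46 ± 0.10), with an adjusted p of 0.11 without control diet and 0.021 to 0.029 without another library. Edn1, the vasoconstrictor endothelin 1, measured 167, 152, 288 and 266 CPM against 129, 136, 105 and 135 CPM (log2 0.75 ± 0.19), and its adjusted p was 0.17 without SAR131675 and 0.15 without control diet. Ptgs1, a prostaglandin synthase, was the gene that was lower, at 19.8, 35.5, 20.9 and 22.4 CPM against 87.3, 85.1, 87.9 and 91.9 CPM (log2 -1.92 ± 0.15). The flow-responsive factors Klf2 (log2 0.33) and Klf4 (0.14) did not pass.

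Of 12 junction genes, Cldn5, the connexin Gjc1 (log2 0.83 ± 0.11) and Icam2 (0.66 ± 0.08) were higher and none was lower by edgeR (0 at an unadjusted p under 0.05) or DESeq2. The connexin Gja1, unlike the rule's own connexins, measured 297, 294, 225 and 270.3 CPM against 254, 256, 312 and 297 CPM and did not pass (log2 -0.10). Esam (log2 0.10), Jam2 (-0.07), Tjp1 (0.28) and Ctnnb1 (0.22) did not pass either. Without cells that carried markers of another type, Gjc1 differed by -0.07 on the log2 scale.

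BMP and TGF beta signals act on endothelium through the receptor ALK1, encoded by Acvrl1, and switch on the Id genes. Of 20 such genes, 10 were higher and 3 lower (6 and 1 without SAR131675, 7 and 1 without control diet). Acvrl1 measured 89.1, 83.6, 112 and 114 CPM against 49.8, 42.3, 67.9 and 68.2 CPM (log2 0.77 ± 0.09), and its target Id1 522, 417, 679 and 480.2 CPM against 272, 231, 381 and 292 CPM (log2 0.79 ± 0.07). Id3 (log2 0.43 ± 0.06), Smad7 (0.50 ± 0.11) and Smad6 (0.73 ± 0.14) were also higher. The ligands split: Bmp6 was higher (log2 1.52 ± 0.26) at 32.5, 15.2, 46.4 and 70.0 CPM against 3.23, 5.16, 21.0 and 27.6 CPM, Tgfb2 was higher (0.89 ± 0.20), and Bmp4 was lower (-1.09 ± 0.18) at 25.5, 39.3, 14.4 and 19.7 CPM against 50.4, 49.9, 36.5 and 55.1 CPM. The coreceptor Eng (log2 -0.30 ± 0.08) and Smad1 (-0.32 ± 0.08) were slightly lower, and both lost their calls without SAR131675 (adjusted p = 0.23 and 0.21) or control diet (0.2 and 0.23). Without SAR131675 the adjusted p was 0.15 for Smad6 and 0.13 for Tgfb2, and without control diet it was 0.062 for Smad6 (0.021 for Tgfb2).

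Among 31 endothelial transcription factors, 12 were higher and 1 lower. Prdm16, a factor of arterial endothelium, measured 31.1, 27.9, 205 and 164 CPM against 12.7, 8.85, 32.6 and 31.1 CPM (log2 2.22 ± 0.20, adjusted p = 7.57e-05). Tbx2 (log2 2.02 ± 0.29), Msx1 (1.49 ± 0.22), Lmo2 (1.09 ± 0.09), Gata2 (0.63 ± 0.09), Tbx3 (0.61 ± 0.13), Epas1 (0.61 ± 0.07) and Sox18 (0.53 ± 0.11) were higher. Sox18 lost its call without control diet (adjusted p = 0.058, and 0.011 to 0.033 without another library). Tbx3 lost its call without SAR131675 (adjusted p = 0.11, and 0.012 to 0.035 without another library). Ets2 was lower (log2 -0.45 ± 0.08). The general endothelial factors Erg (log2 0.00), Fli1 (-0.19) and Mecom (0.03) did not pass. Of the angiopoietin, Tie and apelin genes 2 of 6 were lower, Apln and Aplnr, and none was higher by edgeR (1 at an unadjusted p under 0.05) or DESeq2.

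The vessel wall genes gave 12 of 35 higher and 3 lower (1 lower without SAR131675 or control diet, 8 without LNR). Col8a1, a short-chain collagen of vessel walls, measured 29.7, 39.3, 119 and 44.8 CPM against 18.0, 13.5, 14.5 and 9.28 CPM (log2 2.05 ± 0.31), and Fbln5 143, 134, 144 and 104 CPM against 47.7, 41.8, 36.9 and 39.8 CPM. Mgp was at 1501, 987, 734 and 810.3 CPM against 657, 605, 249.8 and 304 CPM, higher in each library. Col18a1 (log2 0.91 ± 0.12), Fbln2 (0.75 ± 0.08), Sparcl1 (0.62 ± 0.06), Sparc (0.53 ± 0.07), Col4a1 (0.47 ± 0.12) and Ltbp4 (0.40 ± 0.07) were higher. Col4a1 lost its call without LNR, sham or control diet (adjusted p from 0.057 to 0.086). Elastin itself, Eln, did not pass, at 171, 257, 222 and 255 CPM against 159.7, 177, 261 and 211 CPM (log2 0.12). The lower genes were Vcan (log2 -1.52 ± 0.30), Mfap5 (-1.20 ± 0.21) and Col15a1 (-0.57 ± 0.15). Vcan and Col15a1 lost their calls without SAR131675 (adjusted p = 0.12 and 0.24) and without control diet (0.064 and 0.19).

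In leukocyte traffic genes, 6 of 14 were higher and 5 lower, the lower ones being the venular receptors described above together with Ccl21a (log2 -2.01 ± 0.42), a call lost without control diet (adjusted p = 0.066) and with too few UMIs to test without sham. The chemokine Cxcl12 measured 1679.7, 1499, 1623 and 1432 CPM against 1069.6, 928, 976 and 854 CPM (log2 0.66 ± 0.06), and the membrane chemokine Cx3cl1 53.8, 41.8, 82.2 and 73.4 CPM against 17.0, 18.7, 34.3 and 36.0 CPM (log2 1.21 ± 0.13). Podxl (log2 0.82 ± 0.07), the chemokine scavenger Ackr3 (0.73 ± 0.15), Ccl2 and Cxcl1 (0.59 ± 0.08) were the other higher genes. Ackr3 lost its call without SAR131675 (adjusted p = 0.1) or control diet (0.065).

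Interferon-stimulated genes were higher in arterial cells in 11 of 14 cases, with a median log2 difference of 1.01. None was lower by edgeR (1 at an unadjusted p under 0.05) or DESeq2. Rsad2, the antiviral protein viperin, measured 83.5, 82.3, 124 and 177 CPM against 30.2, 28.0, 44.4 and 55.9 CPM (log2 1.51 ± 0.09, adjusted p = 9.23e-06). Ifi27l2a was at 97.6, 70.9, 39.0 and 48.9 CPM against 24.2, 39.3, 7.46 and 7.64 CPM (log2 1.84 ± 0.26). Ifit3 (log2 1.46 ± 0.19), Oasl2 (1.17 ± 0.17), Irf7 (1.09 ± 0.18) and Isg15 (0.92 ± 0.12) were higher too. Ly6e (log2 0.20) and Ifitm3 (-0.22) did not pass. The count was 10 of 14 without cells that carried markers of another type, and 9 to 11 with 1 library left out.

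Immediate early and stress genes, which tissue digestion can also induce, gave 7 of 15 higher, with a median log2 difference of 0.21, and none lower by edgeR (0 at an unadjusted p under 0.05) or DESeq2. The heat shock gene Hspa1a (log2 0.80 ± 0.09) led them, with Hspa1b (0.49 ± 0.08) and Ier2 (0.42 ± 0.07). The count was 3 without SAR131675, 4 without control diet and 3 without cells carrying markers of another type. Of 15 lipid and fluid transport genes, 3 were higher (1 without SAR131675) and 3 lower. The higher ones were led by the taurine transporter Slc6a6 at 749, 484, 1133 and 871 CPM against 302, 295, 587 and 371 CPM (log2 1.01 ± 0.10). The lipoprotein receptor Scarb1 was lower (log2 -0.65 ± 0.08) at 327, 247, 559 and 600.4 CPM against 425, 390.4, 861 and 1009 CPM. Of 12 hypoxia and glycolysis genes, 1 was higher (Bnip3, log2 0.85 ± 0.13) and 1 lower (Ndrg1, -0.75 ± 0.08), and the other 10 did not pass. Of all genes 5.5% were higher and 4.09% lower, and the median log2 difference of the list was -0.01.

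Cell division genes were not separated. Of 16, edgeR called 0 in either direction (0 higher and 1 lower at an unadjusted p under 0.05) and DESeq2 called 0, with a median log2 difference of -0.02. Mki67 measured 46.7, 48.1, 33.0 and 27.8 CPM against 32.0, 59.7, 44.4 and 40.1 CPM, and 14.1% of arterial cells (95% interval 11.1% to 17.5%) had UMIs of 4 or more division genes, against 12.5% of the others. Without LNR 2 genes were lower, as were 2 with 3 or more arterial rule genes required and 1 without upper limits on cells, and without cells carrying markers of another type 6 of the 9 genes still testable were higher, with a median of 1.34. Of 10 MHC genes, edgeR called 0 in either direction (0 at an unadjusted p under 0.05) and DESeq2 called 0. Without LNR 1 of them was higher, as was 1 of 6 without cells carrying markers of another type.

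The arterial cells were also set against 2 smaller classes, named by the venous and capillary genes that chose them. Venous-type cells, 1306 in all (355, 354, 326 and 271), had UMIs of 2 or more of Ackr1, Selp, Vwf and Nr2f2, and capillary-type cells, 211 in all (60, 63, 49 and 39), of 2 or more of Rgcc, Cd36, Car4 and Gpihbp1 with at most 1 venous gene. Against venous-type cells 592 of 10126 genes (5.85%) were higher and 504 (4.98%) lower in arterial cells. Against capillary-type cells 249 (2.46%) were higher and 119 (1.18%) lower, with fewer cells behind the comparison. Rule genes of all 3 classes were left out of these counts. Without SAR131675 the counts were 364 and 292 against venous-type and 101 and 33 against capillary-type cells, and without control diet 333 and 274, and 102 and 49. Without sham they were 159 and 70 against capillary-type cells. Arterial cells were above both classes in 145 genes and below both in 30. In 14 genes they were below venous-type and above capillary-type cells, and in 9 genes the reverse. Whether a gene's difference from venous-type cells was larger than that from capillary-type cells was not tested.

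Arterial markers were compared with both classes. Of 20, 16 were higher than in venous-type cells with 2 lower (median log2 difference 1.54), and 11 were higher than in capillary-type cells (1.14), a count of 7 without control diet and 8 without LNR or SAR131675. Cldn5 was at 512, 524, 615 and 651 CPM in arterial, 61.8, 44.6, 36.9 and 51.5 CPM in venous-type and 182, 216, 90.6 and 127 CPM in capillary-type cells. The difference was 3.55 ± 0.21 on the log2 scale against the first and 1.88 ± 0.21 against the second. Hey1 was likewise above both (log2 3.26 ± 0.25 and 1.74 ± 0.30), as were Igfbp3 (2.97 ± 0.35 and 1.86 ± 0.39) and Vegfc (1.79 ± 0.20 and 3.31 ± 0.34). Igfbp3 did not pass against capillary-type cells without SAR131675 or control diet (adjusted p = 0.12 and 0.089). Dll4 exceeded venous-type cells (log2 1.68 ± 0.14) but did not pass against capillary-type cells (0.52 ± 0.16), where it was at 41.0 to 196 CPM. It passed against them with 3 or more arterial rule genes required (log2 1.00, adjusted p = 0.023) and with no filter on low counts (0.64, 0.004). The markers Dll1 and Cytl1 were lower than in venous-type cells (log2 -0.77 ± 0.18 and -0.97 ± 0.28), and Cytl1 was higher than in capillary-type cells (2.90 ± 0.63). Both genes lost calls in other fits. Against venous-type cells Dll1 had an adjusted p of 0.055 without LNR, 0.068 without control diet and 0.055 by DESeq2, and Cytl1 of 0.13, 0.2 and 0.2 without LNR, sham or control diet and 0.052 by DESeq2. Against capillary-type cells Cytl1 passed without sham and not without any of the other 3 libraries (adjusted p from 0.058 to 0.076).

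Some genes separated arterial cells from venous-type cells and not, or the other way, from capillary-type cells. Esm1, a secreted proteoglycan of sprouting endothelium, measured 53.8, 68.4, 48.3 and 85.6 CPM in arterial, 8.18, 3.03, 5.96 and 9.29 CPM in venous-type and 84.4, 105, 213 and 241 CPM in capillary-type cells. It was therefore above venous-type cells (log2 3.18 ± 0.28) and below capillary-type cells (-1.35 ± 0.23), and it had not passed against all other cells together. Cxcl12 showed the same order (log2 1.44 ± 0.12 and -0.51 ± 0.12), as did the junction gene Jam3 (0.67 ± 0.17 and -0.95 ± 0.19). The lower side of this order against capillary-type cells was lost without SAR131675 or control diet for Esm1 (adjusted p = 0.07 and 0.062), Jam3 (0.087 and 0.058) and Cxcl12 (0.13 and 0.073), and for Cxcl12 also without LNR (0.13). Against venous-type cells Jam3 did not pass without LNR or control diet (0.06 and 0.1). Ednrb exceeded venous-type cells by 2.70 ± 0.19 and did not pass against capillary-type cells (log2 -0.24 ± 0.19), although without cells carrying markers of another type it was below them (-1.50, adjusted p = 0.0011). Rsad2 gave 2.51 ± 0.17 and 0.20 ± 0.18 on the same scale, and interferon-stimulated genes as a list were higher in 11 cases against venous-type cells and in 3 against capillary-type cells. The last count was 1 without LNR, 0 without any 1 of the other libraries (edgeR, with 7 to 10 at an unadjusted p under 0.05) and 9 with no filter on low counts. Aqp1 and Fabp4 separated arterial from venous-type cells (log2 -2.42 ± 0.16 and -1.94 ± 0.16) but not from capillary-type cells (-0.01 ± 0.17 and 0.18 ± 0.15). Without cells carrying markers of another type Aqp1 was below capillary-type cells too (-0.71, adjusted p = 0.016).

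Other genes differed from capillary-type cells in another way. Edn1 did not pass against venous-type cells (log2 0.39 ± 0.23) and was above capillary-type cells (2.08 ± 0.32). Edn1 was above venous-type cells as well with 3 or more arterial rule genes required (log2 1.22, adjusted p = 0.0077), thinned to 3000 UMIs (0.62, 0.028) and without cells carrying markers of another type (0.97, 0.009). Sele lay between the classes, at 94.8, 120.3, 136 and 162 CPM in arterial, 881, 830.2, 1912 and 2527 CPM in venous-type and 6.84, 12.5, 16.9 and 72.3 CPM in capillary-type cells (log2 -3.54 ± 0.21 and 2.48 ± 0.31). Without cells carrying markers of another type its difference from capillary-type cells was -0.82 and did not pass. Apln was below both (log2 -2.86 ± 0.52 and -3.63 ± 0.58), and so were Meox1 (-2.22 ± 0.20 and -1.07 ± 0.26), Ptgs1 (-2.25 ± 0.16 and -1.29 ± 0.22) and Scarb1 (-0.73 ± 0.13 and -0.58 ± 0.13). Against capillary-type cells Apln passed with each library left out, whereas Meox1 did not pass without SAR131675 or control diet (adjusted p = 0.35 and 0.18), Scarb1 not without LNR, SAR131675 or control diet (0.089, 0.19 and 0.13) and Ptgs1 not without control diet (0.05).

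**Figure D3:**
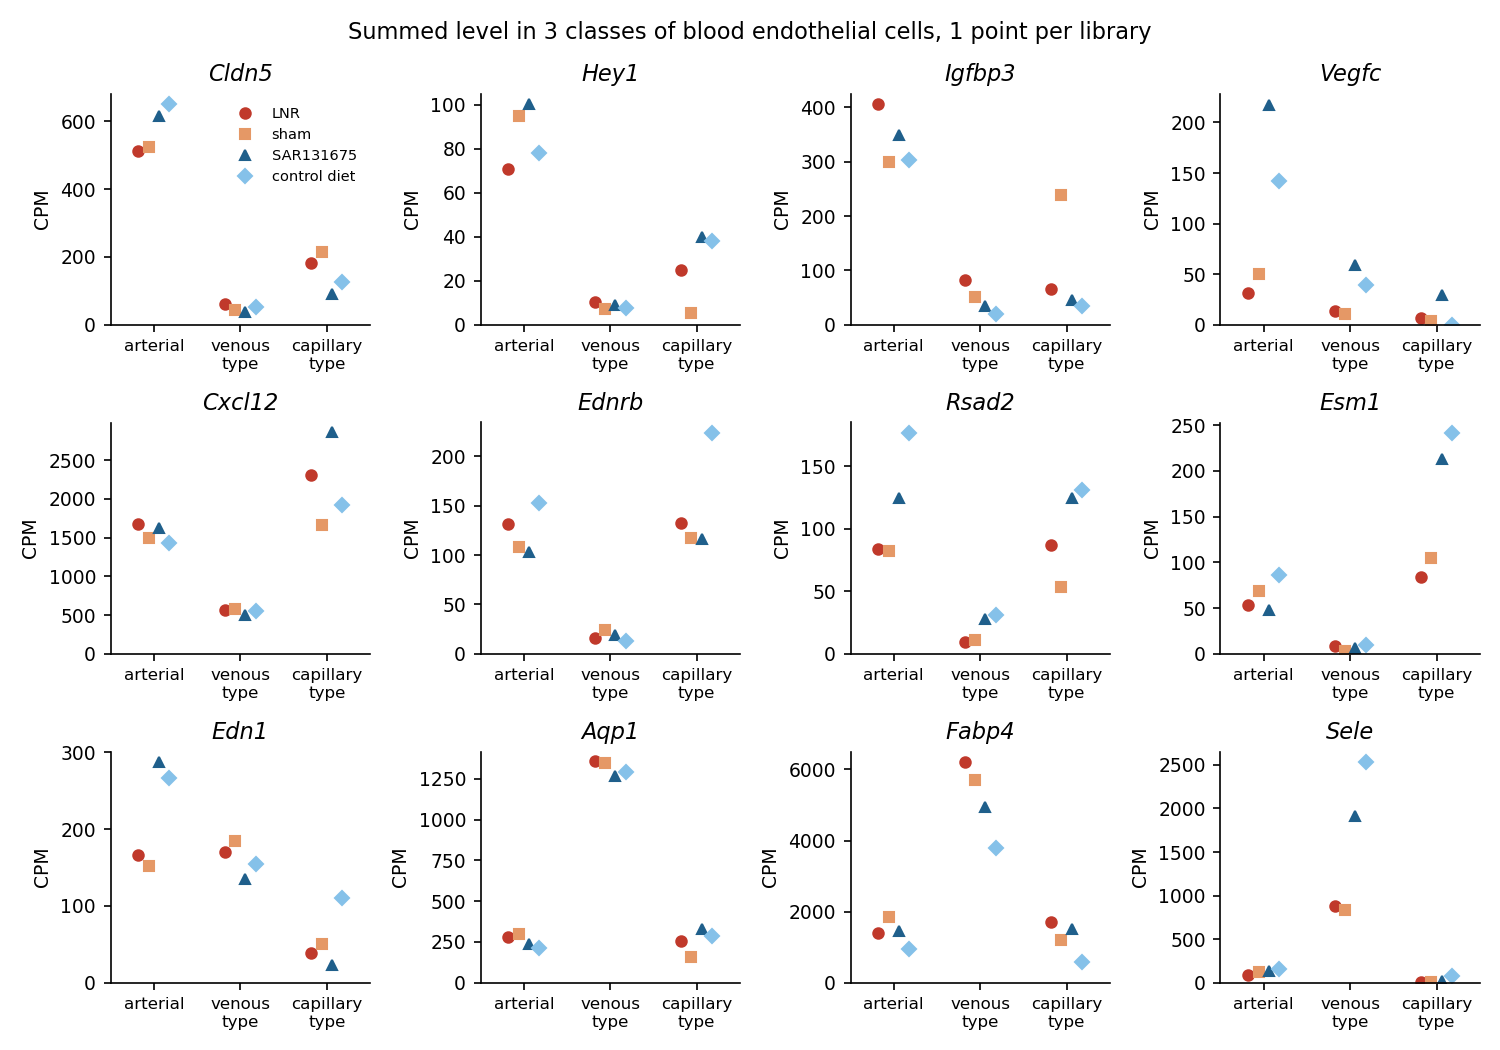
Summed level (CPM) of 12 genes in arterial, venous-type and capillary-type cells, 1 point per library. Cldn5, Hey1, Igfbp3 and Vegfc are above both other classes, Cxcl12 and Esm1 lie below capillary-type and above venous-type cells, and Sele lies between venous-type and capillary-type cells.

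UMIs of marker genes of other cell types were present in the arterial cells, and their source was not tested. Of the 497, 306 (61.6%) had at least 2 UMIs in 2 or more markers of another type, against 55.0% of the other blood endothelial cells. The type first met in arterial cells was smooth muscle in 176, keratinocytes in 75 and pericytes in 29. A cell was counted only under the first list it matched, with smooth muscle ahead of pericytes, so 29 is a lower bound for pericytes. The share was not particular to arterial cells, as 799 of 1306 venous-type cells (61.2%) carried such markers, with smooth muscle first met in 557. Of 7 pericyte markers 6 were higher in arterial cells (median log2 difference 1.29), their summed level being 1320.1 to 2007 CPM against 438 to 1064 CPM. Rgs5, expressed by pericytes and other mural cells, measured 1463, 1529, 1058 and 1375 CPM against 809, 783, 343 and 369 CPM (log2 1.29 ± 0.16). Of 7 smooth muscle markers 4 were higher and 1 lower (1 and 1 without SAR131675 or control diet), with summed levels of 971 to 1582 CPM against 987 to 1738 CPM. In venous-type cells the summed smooth muscle level was 1214 to 2498 CPM. Myh11 was higher (log2 1.28 ± 0.23, adjusted p 0.053 and 0.051 without the SAR131675 and control diet library), and Tagln lower (-0.92 ± 0.07).

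With 3 or more arterial rule genes required, 21, 32, 88 and 47 arterial cells were left. Of 11195 genes tested, 464 were higher and 367 lower. Of the lists, the count of higher genes was then 3 of 11 for factors acting on lymphatic vessels, monocytes or osteoclasts. It was 2 of 15 for immediate early and stress genes, 2 of 7 for pericyte markers and 1 of 7 for smooth muscle markers. The count of lower genes was 1 of 20 for BMP and TGF beta genes and 3 of 13 for leukocyte traffic genes. Named genes that no longer passed were Vcam1 (log2 -0.38), Meox2 (-0.46), Dlk1 (1.48), Ednra (0.40), Bmp4 (-1.38), Vcan (-1.60), Cxcl12 (0.24), Ccl2 (1.22), Il6 (0.49), Cxcl1 (0.37), Kitl (0.40), Il34 (0.39), Kcnj8 (0.89), Abcc9 (0.56), Pdgfrb (0.53), Gjc1 (0.59), Eng (-0.23), Sparc (0.45), Col4a1 (0.22), Hspa1b (0.48), Flt1 (0.25) and Lyve1 (-1.16), and Ccl21a was too low to be tested. In another alternative, cells of at least 3000 UMIs were thinned to that depth after the rule, and shallower cells were left out. There 414 of 8467 genes were higher and 376 lower, with 6 of 20 Notch genes higher and 1 lower. Higher genes were 7 of 23 transcription factors, 7 of 21 vasoactive genes and 4 of 15 immediate early and stress genes, and 2 of 6 fibroblast markers were lower. Named genes that no longer passed were Vcam1 (log2 -1.13), Notch1 (0.18), Nrarp (0.54), Dlk1 (1.13), Nos3 (0.33), Ednra (0.56), Smad6 (0.48), Smad7 (0.32), Oasl2 (0.85) and Irf7 (0.83). Tcf15, Hey2, Heyl, Tbx2, Alpl, Tox2, S1pr3, Lrrc3b, Hbb-bt, Ccl21a and Lyve1 were too low to be tested at that depth. By DESeq2, Nrarp, Smad1, Ccl21a and Lyve1 did not pass, and 2 of 7 fibroblast markers were lower.

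Leaving out all cells with markers of another type kept 33, 34, 71 and 53 arterial cells. Of 8098 genes tested, 433 were higher and 410 lower. The cells left out were picked by UMIs of the markers of other cell types. Changes in those same markers below therefore follow in part from the choice and are no separate result. Arterial markers were then higher in 13 of 18 cases, Notch genes higher in 7 and lower in 1 of 18, and BMP and TGF beta genes higher in 8 and lower in 2 of 19. Vasoactive genes were higher in 6 and lower in 3 of 20, and 2 of 4 smooth muscle markers were lower. Higher genes numbered 6 of 23 for transcription factors, 3 of 10 for leukocyte traffic, with 3 lower, and 3 of 13 for ephrins and axon guidance, with 1 lower. Of keratinocyte markers 1 of 7 was lower, and edgeR called 0 of 2 fibroblast and 0 of 3 erythroid markers. Named genes that no longer passed were Ednrb (log2 0.22), Cxcl12 (0.28), Il6 (0.02), Cxcl1 (-0.11), Kitl (0.24), Rgs5 (0.77), Tbx3 (0.29), Notch1 (0.36), Vcam1 (-0.61), Vcan (-1.30), Gjc1, Id3 (0.27), Smad7 (0.47), Eng (-0.38), Sox18 (0.41), Col4a1 (0.19) and Flt1 (0.04). Notch3, Heyl, Dlk1, Ednra, Tbx2, Ccl2, Il34, Tox2, S1pr3, Mfap5, Myh11, Lyve1, Ccl21a and Hbb-bt were too low to be tested in these cells. The part of mural RNA in the differences of these genes was not tested.

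Keratinocyte markers were lower in 4 of 7 (1 without SAR131675, 2 without sham), with summed levels of 1566 to 4790 CPM against 1728 to 6954 CPM, and fibroblast markers were lower in 5 of 7 (3 without LNR, SAR131675 or control diet), with 422 to 1727 CPM against 608 to 2427 CPM. Of 5 lymphatic markers 2 were lower, Lyve1 (log2 -1.56 ± 0.37) and Ccl21a. In arterial cells Lyve1 was at most 5.66 CPM and Ccl21a at most 5.07 CPM in any library. The Lyve1 call was lost with any 1 library left out (adjusted p from 0.058 to 0.091), and with the upper limits on cells lifted its difference was 0.35. Of 6 leukocyte markers, edgeR called 0 in either direction (1 lower at an unadjusted p under 0.05) and DESeq2 called 0. The Schwann cell list had 1 testable gene, which did not pass.

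The share of arterial cells in the blood endothelium was 12.9% (95% exact binomial interval 10.6% to 15.6%) in LNR, 13.3% (10.9% to 15.9%) in sham, 26.0% (22.8% to 29.3%) in SAR131675 and 22.0% (18.7% to 25.7%) in control diet. These intervals cover counting error only. The log2 ratio of shares was 0.24 between SAR131675 and control diet and -0.04 between LNR and sham, and within each pair the intervals overlapped. The node removal pair, with the lower shares, was also the shallower pair. Cells of at least 3000 UMIs were then thinned to that depth before the rule was applied, and shallower cells were left out. Cells of that depth were 15353 of 19827 kept cells in LNR, 16032 of 20669 in sham, 26437 of 29076 in SAR131675 and 20973 of 24030 in control diet. The shares were 6.01% (27 of 449), 8.39% (36 of 429), 11.5% (71 of 615) and 11.1% (51 of 459), and the log2 ratio between LNR and sham was -0.48. The intervals at that depth were 4.00% to 8.63% for LNR, 5.95% to 11.4% for sham, 9.13% to 14.3% for SAR131675 and 8.39% to 14.3% for control diet. That of sham overlapped both diet libraries, and that of LNR overlapped control diet but not SAR131675. The pairs differ in depth and Cell Ranger version, and the part of either in the shares was not tested. Lifting the upper limits on genes and UMIs gave 295 arterial cells under SAR131675 and 200 under control diet.

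**Figure D4:**
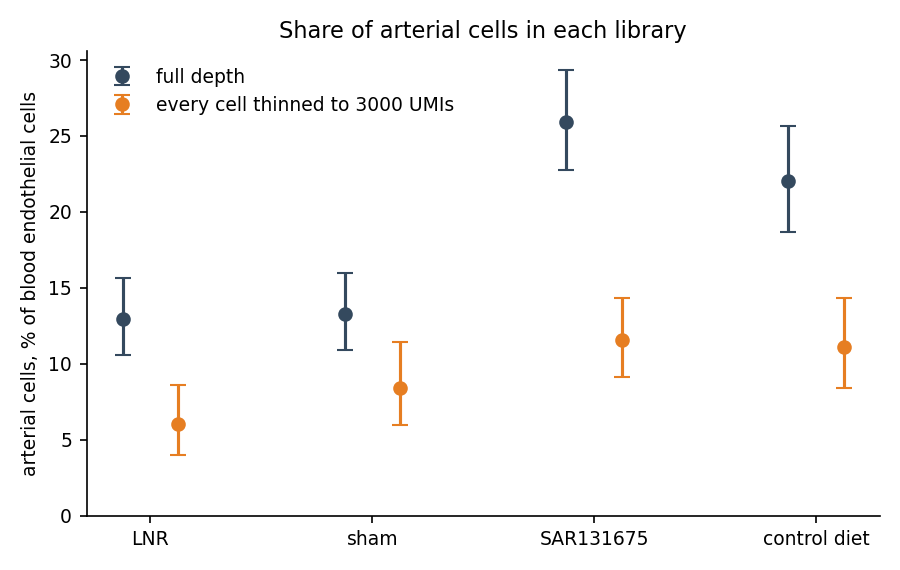
Arterial cells as a percentage of blood endothelial cells in each library, at full depth and after thinning to 3000 UMIs per cell, with exact 95% binomial intervals. Cells under 3000 UMIs are left out of the thinned values. At full depth the diet libraries lie at 26.0% and 22.0% and the node removal pair at 12.9% and 13.3%, and after thinning all 4 lie between 6.01% and 11.5%.

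Between the diets, the question was whether arterial cells carried other levels of any gene under VEGFR3 inhibition. These values compare 2 libraries, with intervals from counting error, and give no test of the treatment. Of 8193 genes with at least 50 UMIs in the pair, 341 (4.16%) were at least 1.5-fold higher and 370 (4.52%) at least 1.5-fold lower under SAR131675. Vegfc measured 218 CPM (199 to 238) under SAR131675 and 143 CPM (124 to 163) under control diet, a log2 ratio of 0.61 (0.37 to 0.85). In the same order it was at 71.0 and 68.6 CPM in cells with 2 rule genes, 365 and 243 CPM with 3 and 468 and 389 CPM with 4. Cells with 3 or more rule genes were 88 of 184 under SAR131675 and 47 of 124 under control diet. The part of this mix in the ratios between diets was not tested. Jag1 was higher at 198 CPM (179.9 to 218) under SAR131675 and 109 CPM (93.1 to 128) under control diet (log2 0.86 (0.59 to 1.13)), while Dll4 was lower (log2 -0.31 (-0.54 to -0.08)). Flt4 gave a log2 ratio of 0.10 (-0.70 to 0.92) on few UMIs.

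Among arterial markers, 5 of 19 were at least 1.5-fold higher under SAR131675, with a median log2 ratio of 0.30 against 0.01 for all genes, whereas Hey1 (log2 0.36 (0.03 to 0.70)) and Efnb2 (0.30 (0.10 to 0.50)) did not reach that fold. The junction gene Cldn5 gave -0.08 (-0.20 to 0.04). Of 28 vessel wall genes, 1 was at least 1.5-fold higher and 1 lower (median log2 ratio -0.12). Col8a1 was the higher one, at 119 CPM (105 to 135) under SAR131675 and 44.8 CPM (34.7 to 57.0) under control diet (log2 1.41 (1.02 to 1.83)). Tgfb2 (1.03 (0.63 to 1.44)), Sox18 (0.85 (0.57 to 1.13)), Il6 (0.74 (0.56 to 0.93)) and Id2 (0.74 (0.47 to 1.01)) were also higher, and Id1 gave 0.50 (0.37 to 0.63). Tbx2 was lower (log2 -1.80 (-2.86 to -0.83)), and Nos3 gave -0.43 (-0.67 to -0.18). Ednrb gave -0.56 (-0.84 to -0.29), under 1.5-fold, and 0.54 without upper limits on the cells. The class II genes H2-Aa (-3.13 (-4.53 to -1.97)) and Cd74 (-3.80 (-4.79 to -2.94)) and the fibroblast gene Dcn (2.79 (2.36 to 3.26)) had larger ratios than any arterial marker. H2-Aa was at 93.4, 136, 3.25 and 28.5 CPM in arterial cells and 50.1, 73.0, 158 and 49.4 CPM in the others. Of marker lists of other cell types, 3 of 3 erythroid genes were at least 1.5-fold lower under SAR131675 (median -1.87), 2 of 7 smooth muscle genes lower (median -0.51), 1 of 7 pericyte genes lower (median -0.27) and 2 of 5 fibroblast genes higher (median 0.52). Of 7 keratinocyte genes 2 were higher and 1 lower (median 0.01). Their summed levels in the SAR131675 and control diet libraries were 69.2 and 236 CPM, 970.5 and 1396 CPM, 1320.1 and 1681 CPM, and 695 and 422 CPM, and for keratinocyte genes 1566 and 2161 CPM. The part of such RNA in the other ratios was not tested.

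Between LNR and sham, contralateral limbs of the same mice, 250 of 4443 genes (5.63%) were at least 1.5-fold higher and 281 (6.32%) at least 1.5-fold lower in arterial cells. Arterial markers were centered near 0 (median log2 ratio 0.01 over 15 genes, against 0.03 for all genes), with 1 higher (Mgp) and 2 lower. Gkn3 was at 36.8 CPM (24.0 to 53.9) in the LNR library and 84.9 CPM (65.8 to 108) in the sham library, a log2 ratio of -1.21 (-1.92 to -0.53). The order of the libraries turned among cells with equal numbers of rule genes. With 2 rule genes, LNR cells held 22.1 CPM of Gkn3 against 5.52 CPM for sham cells. With 3 rule genes these levels were 85.9 and 11.3 CPM. The sham level with 4 rule genes was 886 CPM over 8 cells, a step that held no LNR cells. The part of this mix in the Gkn3 ratio was not tested. Vegfc was at 31.1 CPM (19.5 to 47.1) in the LNR library and 50.7 CPM (36.2 to 69.0) in the sham library (log2 -0.70 (-1.52 to 0.08)), so its interval included no difference. Cldn5 (log2 -0.03 (-0.24 to 0.17)) and Efnb2 (-0.02 (-0.39 to 0.34)) were close to 0.

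Basement membrane and wall genes leaned upward in LNR, with 6 of 25 at least 1.5-fold higher and 1 lower (median log2 ratio 0.39). Of smooth muscle markers 3 of 7 were at least 1.5-fold higher and none lower (median 0.13), with a summed level of 1582 CPM in LNR and 1302 CPM in sham. Of 6 pericyte markers none was higher or lower (median -0.06, 1939 and 2007 CPM), and of 6 fibroblast markers none was higher and 1 lower (median -0.17, 1429 and 1727 CPM). Mgp measured 1501 CPM (1412 to 1594) in the LNR library and 987 CPM (919 to 1059) in the sham library (log2 0.61 (0.47 to 0.74)) and Col4a1 958 CPM (887 to 1033) in the LNR library and 609 CPM (556 to 666) in the sham library (log2 0.65 (0.48 to 0.82)). The scavenger Ackr3 (1.29 (0.67 to 1.94)), the ligands Bmp2 (1.09 (0.51 to 1.68)) and Tgfb1 (0.84 (0.38 to 1.31)) and the chemokine Ccl2 (0.98 (0.68 to 1.28)) were higher, and Nrarp was lower (-1.04 (-1.79 to -0.32)). Of 8 cell division genes 3 were at least 1.5-fold higher in LNR and none lower (median 0.41), with a summed level of 1214 CPM in LNR and 874 CPM in sham. UMIs of 4 or more division genes were found in 11 of 92 arterial cells in LNR and 15 of 97 in sham, a share that was lower in LNR. Ube2c had a ratio of 2.23 (1.38 to 3.19) and Mki67 of -0.04 (-0.76 to 0.67). Between the diets 2 of 6 were higher and none lower (median 0.45). Keratinocyte markers were lower in 4 of 7 (median -0.90), among them Krt10 at 112 CPM (88.5 to 139) in the LNR library and 1795 CPM (1703 to 1891) in the sham library, although keratinocytes of these libraries held 6205 and 6303 CPM. The part of RNA of these cell types in the other ratios was not tested.

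In both pairs together, 2178 genes had at least 100 UMIs in each, of which 625 were higher and 456 lower in both treated libraries. About as many genes did not share a direction, so agreement between the pairs was no more frequent than disagreement. At 1.5-fold or more, 4 genes were higher and 15 lower in both. The pairs share no library. The 5 genes with the largest smaller ratio were Jag1, Bmp2, Igfbp5, Gas1 and Uqcc2, of which Jag1 did not reach 1.5-fold in LNR. Jag1 gave log2 ratios of 0.86 (0.59 to 1.13) under SAR131675 and 0.50 (0.02 to 0.99) in LNR, Bmp2 0.64 (0.11 to 1.18) and 1.09 (0.51 to 1.68), and Igfbp5, another binder of insulin-like growth factors, 0.66 (0.27 to 1.06) and 1.23 (0.95 to 1.52). The 5 lower in both were the keratinocyte genes Krt1, Lor, Wfdc21, Spink5 and Sbsn, which arterial cells should lack. Krt1 was at 22.6, 621, 79.9 and 613 CPM in arterial cells and 1720.5 to 3375 CPM in keratinocytes, and its ratio under SAR131675 turned to 0.88 with 3 or more arterial genes required.

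**Figure D5:**
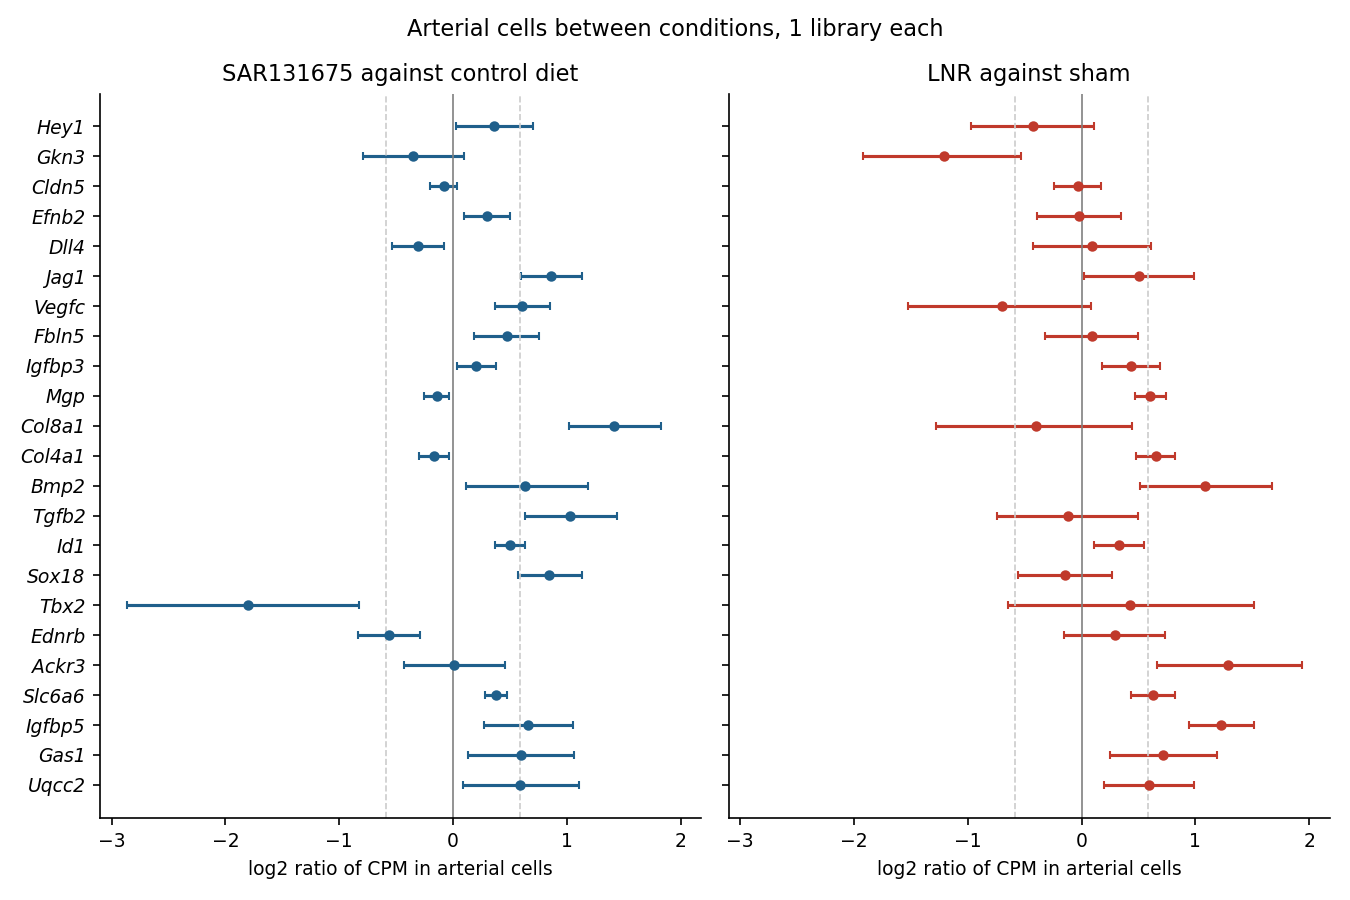
Log2 ratio of summed CPM in arterial cells for 23 genes, SAR131675 against control diet and LNR against sham, with exact 95% intervals that cover counting error only. Dashed lines mark 1.5-fold in either direction and each condition is 1 library. The intervals of Vegfc lie above 0 under SAR131675 and include 0 in LNR, whereas those of Ackr3 lie above 0 in LNR and include 0 under SAR131675.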

How the data were processed

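Digit tissue was digested with collagenase and dispase, red cells were lysed and 10x 3′ libraries were sequenced. The authors deposited filtered Cell Ranger matrices of raw UMI counts per gene and cell (33696 genes), with Cell Ranger 6.1.2 and GRCm39 in the labels and versions 6.1.2 or 8.0.1 in the file headers. Sequences and coordinates were not used here. Barcodes with 200 to 5500 genes, at most 30000 UMIs and at most 10% mitochondrial UMIs were kept. No doublet caller was run, and cells with at least 2 UMIs in 2 or more markers of another cell type were left out in an alternative. No shared barcode needed removal from the blood endothelial cells.

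UMI counts were summed per library and class and tested with edgeR 4.0.16 in R 4.3.3 (TMM, filterByExpr, quasi-likelihood F test, library as a block, Benjamini-Hochberg adjustment), with DESeq2 1.42.0 as an alternative. SEs are those of the log2 difference. Because every class comes from the same 4 libraries, the library is the pairing, and an exact sign-flip permutation test over 4 libraries could not go below p = 0.125. Replicates of a condition do not exist, so conditions were compared by CPM with exact 95% Poisson intervals and log2 ratios with exact conditional intervals over genes with at least 50 UMIs, called at 1.5-fold. Python 3.11.15 with numpy 2.4.6, scipy 1.17.1, pandas 2.3.3 and matplotlib 3.10.9 was used for the rest, and the fits were tested on simulated counts.

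The text names genes of the marker and pathway lists, the 12 largest called differences in each direction with at least 20 CPM in the higher class and the same sign in all libraries, and the 5 largest ratios in each direction that both pairs share, 100 or more UMIs being needed per pair. The cell rule, the lists and the named genes were chosen with earlier results of these data known, so no count over a list is independent evidence. The alternatives were another tool, library sizes alone, no filter on low counts, each library left out, no library block, stricter arterial or endothelial rules, no upper limits on cells, thinning to 3000 UMIs, and a minimum of 20 UMIs in a pair.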

Additional observations from a re-analysis of the deposited data

Results flagged for a closer look

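In 3 genes the difference between arterial and other blood endothelial cells had one sign in both libraries of the node removal pair and the other sign in both diet libraries. The pairs also differ in depth and in the Cell Ranger version of their file headers, and the difference between the pairs was not tested. All values are log2 ratios of arterial CPM over other blood endothelial CPM with 1 CPM added to each. Vegfa, the main growth factor of blood vessels, gave -0.028 in LNR, -0.25 in sham, 1.41 in SAR131675 and 0.69 in control diet, at few UMIs. Gja1, a connexin gene, gave 0.22, 0.20, -0.47 and -0.14 in the same order. H2-Aa, a class II gene, gave 0.89, 0.88, -5.22 and -0.77. Gene levels were compared for such turns only where the text gives a gene's level in both classes, so these 3 genes are no survey of all genes.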

How the results depend on the processing

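All counts and values below come from edgeR or the same ratios with 1 choice altered, and the causes of the changes were not tested. Genes higher in arterial than in other blood endothelial cells numbered 653, against 26 with no replicate block (the library term left out), 414 thinned to 3000 UMIs, 433 without cells carrying markers of other types and 309 to 646 with 1 library left out. Lower genes numbered 485, against 321 by DESeq2, 14 with no replicate block and 216 to 503 with 1 library left out. Against venous-type cells the 592 higher genes became 61 with no block and 333 to 567 with 1 library left out, and the 504 lower genes 54 with no block, 291 without upper limits on cells and 274 to 476. Against capillary-type cells the 249 higher genes became 618 with no filter on low counts, 2 with no block, 109 thinned, 130 without marker-carrying cells and 101 to 196 with 1 library left out, and the 119 lower genes 281, 0 with no block, 214 with 3 or more arterial genes, 58 without upper limits and 33 to 82. In the diet pair, higher genes became 524 without upper limits, 130 thinned and 849 with at least 20 UMIs, and lower genes 76 thinned and 807 with at least 20 UMIs. In the node removal pair, higher genes became 116 with 3 or more arterial genes, 30 thinned, 57 without marker-carrying cells and 766 with at least 20 UMIs, and lower genes 160, 47, 69 and 799, with 166 when 4 or more endothelial genes were required. The log2 ratio of arterial shares between LNR and sham was -0.57 with 3 or more arterial genes and -0.48 thinned, and that between diets 0.57 and 0.055. Signs of differences from the other cells turned for Cxcl1 (-0.11), Esm1 (-0.21) and Gjc1 (-0.073) without marker-carrying cells and for Lyve1 (0.35) without upper limits. Against venous-type cells they turned for Cytl1 (0.22) and Jam3 (-0.097) with 3 or more arterial genes, and against capillary-type cells for Sele (-0.82) without marker-carrying cells. Of differences from capillary-type cells that had not passed, signs turned for Dll1 (-0.026 without marker-carrying cells), Ednrb (0.40 without upper limits), Rsad2 (-0.12 thinned), Fabp4 (-0.28 with 3 or more arterial genes, -0.060 thinned, -0.58 without marker-carrying cells) and Aqp1 (0.016 by library sizes alone, 0.091 with no filter, 0.029 with no block, 0.017 with 4 or more endothelial genes, 0.30 without upper limits and -0.27 to 0.17 with 1 library left out). Among ratios of 1.5-fold or more between diets they turned for Krt1 (0.88 with 3 or more arterial genes, 0.61 with 4 or more endothelial genes, 0.83 without marker-carrying cells), Lor (1.41), Wfdc21 (1.29) and Spink5 (1.12) without upper limits, and Sbsn (1.36 with 3 or more arterial genes, 0.21 without upper limits). Between LNR and sham they turned for Slc6a6 (-0.21, thinned) and Dcn (0.96, with 3 or more arterial genes). Of the remaining values for named genes between classes, 1884 kept direction and side of the threshold, 315 kept direction and lost the call and 12 gained it. The shallower node removal pair had 4443 genes with at least 50 UMIs in arterial cells, against 8193 in the diet pair.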

Other observations

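Of 2 testable osteoblast lineage genes, Alpl, the tissue-nonspecific alkaline phosphatase, was higher in arterial cells, at 26.9, 11.4, 17.6 and 14.9 CPM against 2.42, 3.93, 0.196 and 1.09 CPM (log2 3.31 ± 0.51, edgeR adjusted p = 0.002), and it was also above venous-type (3.45 ± 0.55) and capillary-type cells (3.37 ± 0.88). The last call was lost without LNR or sham (adjusted p = 0.19 and 0.093), and without SAR131675 or control diet Alpl was too low to be tested against either class. Of the bone-forming cell genes, Ibsp measured 2.83, 3.8, 0.929 and 0 CPM in arterial and 19.9, 15.7, 1.37 and 1.36 CPM in the other blood endothelial cells, on at most 3 UMIs per library in arterial cells. Bglap measured 1.42, 2.53, 0 and 0 CPM and 2.96, 2.70, 0 and 0.818 CPM in the same order, on at most 2 UMIs.

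Of 19 ephrin and axon guidance genes 6 were higher in arterial cells, Efnb2 and Unc5b among them (3 without SAR131675 or control diet), and none was lower by edgeR (4 at an unadjusted p under 0.05) or by DESeq2. By edgeR 2 were lower without LNR and 1 without sham. Stmn2, a microtubule regulator best known from neurons and listed here as an arterial marker, was at 163, 162, 143 and 96.4 CPM against 87.0, 66.4, 77.5 and 61.7 CPM (log2 0.88 ± 0.10), and was higher than in capillary-type cells by 2.45 ± 0.23 and than in venous-type cells by 0.59 ± 0.14. The last call was lost without SAR131675 (adjusted p = 0.069), without control diet (0.073) and by DESeq2 (0.057).

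Of the pericyte markers, Kcnj8 (log2 1.40 ± 0.23), Abcc9 (1.22 ± 0.10) and Pdgfrb (1.10 ± 0.11) were higher in arterial cells with all cells included, and were too low to be tested once cells with markers of another type were left out. Pericyte markers were among those that picked the cells left out, so this loss follows in part from the choice.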
